A study of Mus musculus with 12 samples.

Results

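Macrophages of the kidney are read here through 10 genes chosen by name: Cd68, Lyz2, Csf1r, Itgam and Fcgr1 as general markers, Csf1 as the ligand that keeps macrophages alive, Mrc1 and Cd163 as markers of alternatively activated cells, and Trem2 and Gpnmb as markers of lipid-associated cells. All 10 were present among the 23183 gene symbols of the 12 libraries. RNA came from kidney cortex of male C57BL/6 mice (C57BL/6N in the study's methods), 6 to 7 weeks old at surgery, collected on day 7 after unilateral ureteral obstruction (UUO), in which the ureter of one kidney is closed. The 4 groups of 3 libraries were the contralateral, unobstructed kidney of wild-type mice (WT CL), their obstructed kidney (WT UUO), and the same sides in mice with a germline mutation of Acot12 made by an RNA-guided endonuclease (Acot12-/- CL and Acot12-/- UUO). The mutation was global, so leukocytes and tubules both carried it, and the CL kidney served as the control of an obstructed mouse, with no sham-operated kidney among these libraries. Cortex holds many cell types at once, and in such bulk RNA fewer macrophages and less RNA per macrophage cannot be told apart.

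Macrophages reach an injured kidney as circulating monocytes and also live there as residents. The receptor Csf1r, switched on by either of its ligands Csf1 and Il34, keeps both alive. Once in tissue, the cells can take on several programs. Classically activated cells make inflammatory cytokines. Alternatively activated cells carry scavenging receptors such as Mrc1 and Cd163 and are linked to repair and fibrosis. Lipid-associated cells, marked by the lipid sensor Trem2, take up lipid and debris and express Gpnmb. Acot12 is an enzyme that cleaves acetyl-CoA in the cytosol and is made by tubule cells.

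Depth was read from the steps between low values. It ran from 12.5 to 13.7 M (1e6) fragments in WT CL and 21.3 to 23.0 M in WT UUO. In Acot12-/- kidneys it was 14.2 to 16.2 M in CL and 18.6 to 21.6 M in UUO. Such a step gives the divisor of a library, which is not its sequenced depth if libraries were scaled to each other. Total FPKM ran the other way, at 799670 to 977980 in WT CL and 491077 to 560621 in WT UUO. Whether CL kidneys were sequenced less deeply is therefore not shown. Acot12 itself had 73.8, 52.7 and 78.1 FPKM in WT CL, 9.98, 16.7 and 21.2 in WT UUO, 9.15, 9.01 and 6.80 in Acot12-/- CL versus 3.28, 1.80 and 3.86 in Acot12-/- UUO, and within each side every Acot12-/- library lay below every WT library. On the second principal component, which held 9.5% of the variance, Acot12-/- CL replicate 2 (52.3) stood apart from replicates 1 (-22.2) and 3 (-33.0). Tests with limma that rest on the Acot12-/- CL kidneys are therefore also given without that library.

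The 250 bases before the transcription start are shown for a gene of each kind: a general, an alternatively activated and both lipid-associated markers, since their levels moved together with UUO. They are RefSeq sequences of build GRCm38.p6, given 5′ to 3′ on the strand of the gene. Capitals mark GAGGAA, the core bound by the myeloid factor PU.1, and TGANTCA, the AP-1 site, on either strand. No TCATGTG, the M-box of MITF-family factors, was found in any of them. Cd68 is at chr11:69666171-69666420 on the minus strand, Mrc1 at chr2:14229164-14229413, Trem2 at chr17:48346151-48346400 and Gpnmb at chr6:49036268-49036517, each on the plus strand.
Cd68: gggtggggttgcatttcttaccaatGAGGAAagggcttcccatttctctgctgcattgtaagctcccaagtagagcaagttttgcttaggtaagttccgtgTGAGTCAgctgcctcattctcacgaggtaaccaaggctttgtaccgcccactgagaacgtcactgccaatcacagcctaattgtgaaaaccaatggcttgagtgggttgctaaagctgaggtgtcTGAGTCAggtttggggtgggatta
Mrc1: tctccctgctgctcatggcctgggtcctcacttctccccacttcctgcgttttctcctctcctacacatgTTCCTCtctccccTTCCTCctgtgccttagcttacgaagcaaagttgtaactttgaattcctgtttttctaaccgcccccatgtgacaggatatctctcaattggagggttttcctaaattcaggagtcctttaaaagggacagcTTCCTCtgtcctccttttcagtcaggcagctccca
Trem2: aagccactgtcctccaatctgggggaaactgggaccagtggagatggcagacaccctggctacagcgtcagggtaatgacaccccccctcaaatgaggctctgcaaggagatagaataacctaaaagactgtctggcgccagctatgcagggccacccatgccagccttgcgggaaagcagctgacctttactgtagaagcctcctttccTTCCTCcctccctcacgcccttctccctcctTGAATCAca
Gpnmb: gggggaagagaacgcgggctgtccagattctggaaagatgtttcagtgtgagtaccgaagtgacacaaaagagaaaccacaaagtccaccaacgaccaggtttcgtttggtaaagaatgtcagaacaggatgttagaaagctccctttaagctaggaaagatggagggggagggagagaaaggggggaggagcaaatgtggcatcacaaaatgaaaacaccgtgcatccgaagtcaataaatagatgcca
Cd68 held 1 PU.1 core, 225 bases before the start, and 2 AP-1 sites. Mrc1 held 3 PU.1 cores, at 180, 167 and 35 bases. Trem2 held a PU.1 core 40 bases and an AP-1 site 9 bases before the start, and Gpnmb held none of the 3 motifs. Over the 9 listed genes with a RefSeq window, 5 had a PU.1 core, 2 an AP-1 site and 0 an M-box, against 23.3%, 6.75% and 3.25% of all 32851 windows of this length. Matches of letters are a description of these windows and no evidence of binding.

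**Figure D1:**
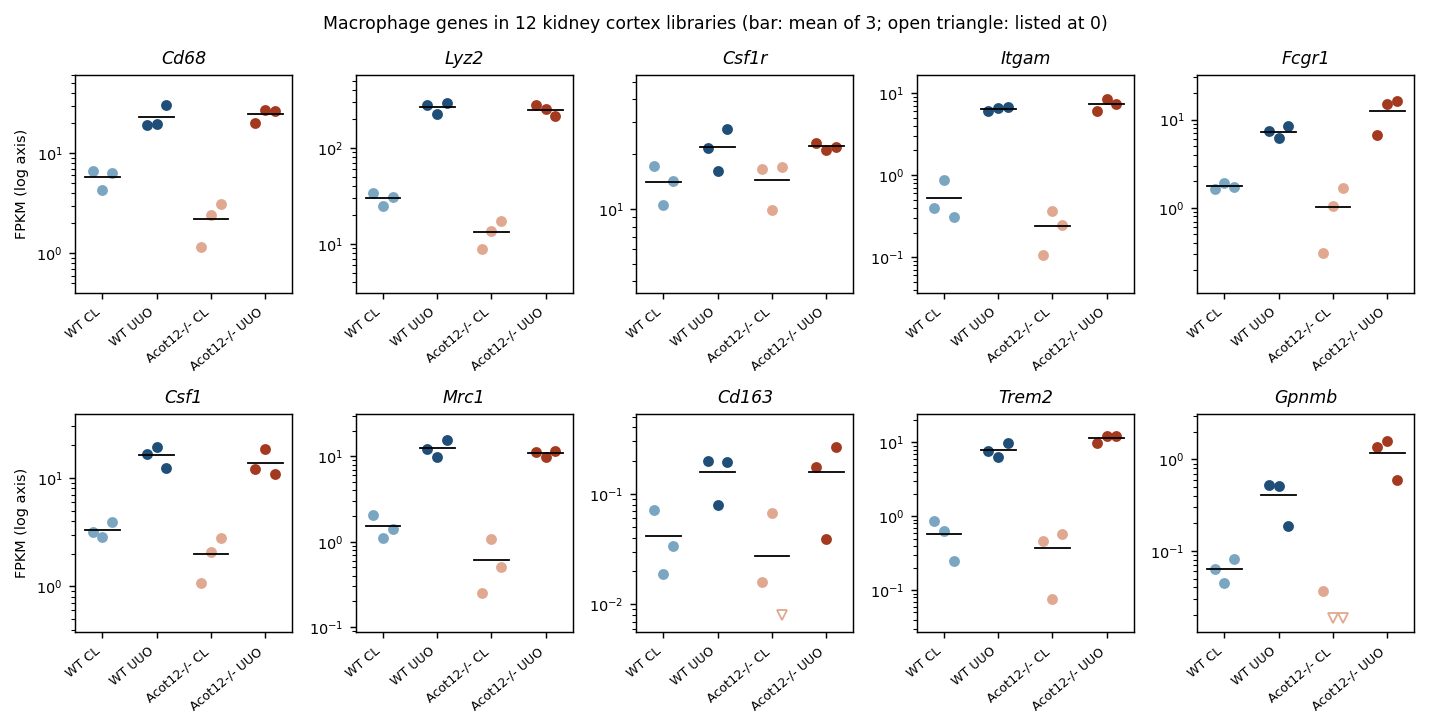
FPKM of the 10 macrophage genes in each library on a log axis, by group; points are libraries, bars are means of 3 and open triangles are libraries in which a gene is listed at 0. In the panels of Cd68, Lyz2, Itgam, Fcgr1, Csf1, Mrc1, Trem2 and Gpnmb every UUO library sits above every CL library of its genotype, and in that of Csf1r the WT groups overlap.

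UUO raised the macrophage genes as a group, but not to the same degree. In WT kidneys 7 of the 8 genes with enough signal for a test were higher after UUO, while 23.6% of all 13243 genes tested were called higher. Their median log2 fold change was 2.14, and that of all genes 0.01. In Acot12-/- kidneys 8 of 8 were higher, with a median of 2.83 against -0.01, and 26.6% of all genes were called higher. Of all calls 50.3% were lower in WT and 50.5% in Acot12-/- kidneys, and with libraries scaled to an equal total FPKM 12.4% and 20.3%. Without Acot12-/- CL replicate 2 the log2 fold changes in Acot12-/- kidneys were 3.10 for Cd68, 4.23 for Lyz2, 2.81 for Itgam, 2.77 for Fcgr1, 2.36 for Csf1, 3.12 for Mrc1 and 3.02 for Trem2, all called, and 0.38 for Csf1r, which was not. Cd163 and Gpnmb stayed under the filter of 1 FPKM in 3 libraries and are treated apart. Every value below is an FPKM, that is, a level per kilobase of transcript and per M fragments. Every fold change given as log2 comes from limma on log2(FPKM + 1) with its standard error (SE) and a Benjamini-Hochberg adjusted p over all genes tested, and understates the change of genes at low levels.

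Lyz2, which encodes the lysozyme of myeloid cells (chromosome 10, 117277331 to 117282321), was the most abundant of the 10 in every library but Acot12-/- CL replicate 1, where Csf1r was. It had 34.0, 24.9 and 31.0 FPKM in WT CL versus 285, 227 and 293 in WT UUO. In Acot12-/- kidneys it had 8.73, 13.6 and 17.4 FPKM in CL versus 280, 259 and 217 in UUO. No library of one side reached the range of the other, and the mean rose 8.97-fold in WT and 19.0-fold in Acot12-/- kidneys. The log2 fold change was 3.13 (SE 0.23, adjusted p 2.43e-06) in WT and 4.19 (SE 0.23, adjusted p 2.1e-07) in Acot12-/- mice. Lyz2 alone made up 51.3 to 52.7% of the summed FPKM of the 10 genes in WT CL and 72.5 to 75.7% in WT UUO. Its paralog Lyz1 lies beside it on chromosome 10 and is close in sequence, so the split of reads between the pair is uncertain. Lyz1 was far lower, at 0.683 to 0.786 FPKM in WT CL versus 4.55 to 7.72 in WT UUO, and moved the same way (log2 fold change 1.93, SE 0.22).

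Cd68 encodes a glycoprotein of macrophage lysosomes (chromosome 11, 69664213 to 69666153). It had 6.63, 4.32 and 6.41 FPKM in WT CL versus 19.1, 19.7 and 30.6 in WT UUO. The Acot12-/- kidneys had 1.15, 2.41 and 3.08 FPKM in CL versus 20.2, 26.9 and 26.6 in UUO. The obstructed kidneys of both genotypes shared a range while the Acot12-/- CL kidneys started lower, and the mean thus rose 4.0-fold in WT and 11.1-fold in Acot12-/- mice. The log2 fold change was 1.82 (SE 0.26, adjusted p 0.000161) in WT and 3.03 (SE 0.26, adjusted p 3.24e-06) in Acot12-/- mice.

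Itgam and Fcgr1 are surface receptors of monocytes and macrophages. Itgam, the CD11b chain of an adhesion and complement receptor (chromosome 7, 128062640 to 128118491), had 0.403, 0.870 and 0.307 FPKM in WT CL versus 6.04, 6.48 and 6.75 in WT UUO. It had 0.105, 0.362 and 0.248 FPKM in Acot12-/- CL versus 6.03, 8.38 and 7.44 in Acot12-/- UUO. All CL kidneys were under 1 FPKM and all obstructed ones above 6, with means 12.2-fold and 30.6-fold higher. Itgam is also carried by neutrophils and natural killer cells. In the annotation it shares 55809 bases of the same strand with Gm49368, which is not listed in the files. Fcgr1, the high-affinity receptor for IgG (chromosome 3, 96282909 to 96293969), had 1.65, 1.92 and 1.73 FPKM in WT CL versus 7.44, 6.15 and 8.37 in WT UUO. In Acot12-/- kidneys it had 0.311, 1.06 and 1.67 FPKM in CL versus 6.65, 14.9 and 16.2 in UUO. Acot12-/- UUO replicates 2 and 3 lay above every WT UUO library and replicate 1 within their range. The log2 fold changes of Fcgr1 were 1.58 (SE 0.30) and 2.72 (SE 0.30), and those of Itgam 2.30 (SE 0.16) and 2.74 (SE 0.16), in WT and Acot12-/- mice, all 4 called.

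Csf1r, the receptor for Csf1 and Il34 (chromosome 18), moved least. It had 17.3, 10.6 and 14.2 FPKM in WT CL versus 21.7, 16.3 and 27.3 in WT UUO. The Acot12-/- kidneys had 16.5, 9.88 and 17.0 FPKM in CL versus 22.9, 21.2 and 22.0 in UUO. The ranges of WT CL and WT UUO overlapped, those of the Acot12-/- kidneys did not. The mean was 1.55-fold higher in WT and 1.52-fold higher in Acot12-/- mice. The log2 fold change was 0.60 (SE 0.24, adjusted p 0.0569) in WT, which missed the threshold of 0.05, and 0.61 (SE 0.24, adjusted p 0.0469) in Acot12-/- mice, which passed it. With the replicate number as a block both passed (adjusted p 0.0237 and 0.0191). Without Acot12-/- CL replicate 2 the Acot12-/- value was 0.38 (adjusted p 0.142) and the WT value passed (adjusted p 0.0182). The Acot12-/- call was also lost without WT CL replicate 3 (adjusted p 0.0612), WT UUO replicate 1 (0.0624) or Acot12-/- UUO replicate 1 (0.108), 2 (0.0849) or 3 (0.0946), and the WT change was also called without WT CL replicate 1 (0.0421) or WT UUO replicate 2 (0.031). Over both genotypes the change was 0.60 (SE 0.16, adjusted p 0.00529), where 31.3% of all genes were called higher, and Csf1r was higher in the obstructed kidney of all 6 pairs of same-numbered libraries. This change was 0.50 (adjusted p 0.00774) without Acot12-/- CL replicate 2. The last 873 bases of Csf1r lie opposite Hmgxb3 on the other strand. The library kit kept strand, but whether counting used it is not given in the sources used here. Hmgxb3 moved the other way, from 5.72, 5.03 and 6.33 FPKM in WT CL to 3.82, 4.68 and 3.91 in WT UUO (log2 fold change -0.38, SE 0.19, adjusted p 0.124).

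Both ligands of this receptor rose. Csf1 (chromosome 3, 107741048 to 107760469) had 3.15, 2.82 and 3.95 FPKM in WT CL versus 16.7, 19.4 and 12.3 in WT UUO. It had 1.08, 2.09 and 2.81 FPKM in Acot12-/- CL versus 12.1, 18.6 and 10.7 in Acot12-/- UUO. All obstructed kidneys lay above all CL kidneys, with log2 fold changes of 1.98 (SE 0.25, adjusted p 8.56e-05) and 2.31 (SE 0.25, adjusted p 1.79e-05). Il34, the second ligand and in kidney a product of tubule cells, was the more abundant one. Its FPKM were 16.8, 26.1 and 15.1 in WT CL, 66.1, 84.4 and 62.3 in WT UUO, 10.3, 3.83 and 29.1 in Acot12-/- CL versus 54.9, 66.9 and 77.5 in Acot12-/- UUO. The Acot12-/- CL libraries were widely spread, replicate 2 being the lowest, and every obstructed kidney lay above every CL kidney (log2 fold change 1.85, SE 0.49, and 2.50, SE 0.49). Without that library the Acot12-/- value of Il34 was 1.86 (SE 0.36), close to that of WT.

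Mrc1, the mannose receptor CD206 of alternatively activated cells (chromosome 2, 14229392 to 14332057), had 2.07, 1.11 and 1.40 FPKM in WT CL versus 12.1, 9.75 and 15.8 in WT UUO. In Acot12-/- kidneys it had 0.249, 1.09 and 0.507 FPKM in CL versus 11.3, 9.80 and 11.6 in UUO. The groups did not overlap, and the mean was 8.22-fold and 17.7-fold higher after UUO, the latter 28.9-fold without Acot12-/- CL replicate 2. The log2 fold change was 2.42 (SE 0.22, adjusted p 1.12e-05) in WT and 2.91 (SE 0.22, adjusted p 1.42e-06) in Acot12-/- mice. Cd163, the scavenger receptor for haptoglobin-bound hemoglobin and the other alternatively activated marker (chromosome 6, 124304656 to 124330527), was barely measured. It had 0.071, 0.019 and 0.034 FPKM in WT CL, 0.198, 0.079 and 0.193 in WT UUO, 0.016, 0.067 and 0 in Acot12-/- CL versus 0.174, 0.039 and 0.265 in Acot12-/- UUO. These levels stand for about 0 to 4.1 fragments in CL and 3.0 to 22.9 in UUO libraries. A floor of 3 fragments, set here for a listed 0 and no strict limit, is worth 0.0441 FPKM in Acot12-/- CL replicate 3. Acot12-/- UUO replicate 2 fell within the CL range. With kidney sides exchanged within genotype in all 400 ways, UUO and CL differed by 0.16 on log2(FPKM + 1) (exact permutation test, two-sided p 0.015), and 5 of 6 pairs were higher in UUO.

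Trem2, a lipid-sensing receptor that signals through Tyrobp (chromosome 17, 48346401 to 48354147), showed the largest proportional rise among the 8 genes in WT kidneys. It had 0.867, 0.623 and 0.245 FPKM in WT CL versus 7.70, 6.42 and 9.78 in WT UUO. In Acot12-/- kidneys it had 0.466, 0.077 and 0.575 FPKM in CL versus 9.90, 12.1 and 12.2 in UUO. No UUO library came near a CL library, and the means were 13.8-fold and 30.5-fold higher. The CL levels stand for only 1.0 to 10 fragments, so these ratios carry a wide counting error. The log2 fold change was 2.51 (SE 0.20, adjusted p 5.16e-06) in WT and 3.19 (SE 0.20, adjusted p 4.66e-07) in Acot12-/- mice. Tyrobp, its signaling adaptor, was already high in WT CL at 54.3, 55.1 and 46.0 FPKM and reached 114, 100 and 112 in WT UUO (log2 fold change 1.06, SE 0.30).

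Gpnmb, a membrane glycoprotein of lipid-laden macrophages (chromosome 6, 49036546 to 49070929), had 0.063, 0.045 and 0.081 FPKM in WT CL versus 0.525, 0.514 and 0.189 in WT UUO. It had 0.037 FPKM in Acot12-/- CL replicate 1, was listed at 0 in replicates 2 and 3, where 3 fragments are worth 0.06 and 0.0535 FPKM, and had 1.38, 1.57 and 0.594 FPKM in Acot12-/- UUO. UUO and CL libraries did not overlap in either genotype, and every Acot12-/- UUO library lay above every WT UUO library. Gpnmb was higher in UUO in 6 of 6 pairs, by 0.74 on log2(FPKM + 1) over both genotypes (exact permutation test, two-sided p 0.005, the smallest that the 400 arrangements allow). In a limma fit without the filter its change was called in Acot12-/- mice (1.08, adjusted p 0.000298) and not in WT mice (0.40, adjusted p 0.0685).

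By level, Lyz2, Csf1r and Cd68 came first in WT CL kidneys, with means of 29.9 ± 4.64, 14.0 ± 3.36 and 5.79 ± 1.28 FPKM (SD, n = 3). Their libraries did not overlap. In WT UUO kidneys Cd68 (23.1 ± 6.48), Csf1r (21.8 ± 5.54) and Csf1 (16.1 ± 3.62) followed Lyz2 (268 ± 35.8), and then Mrc1 (12.5 ± 3.04), Trem2 (7.97 ± 1.70), Fcgr1 (7.32 ± 1.11) and Itgam (6.42 ± 0.357). From Cd68 to Itgam each gene overlapped with the next. In Acot12-/- CL kidneys Csf1r (14.4 ± 3.97) and Lyz2 (13.2 ± 4.33) overlapped at the top, above Cd68 (2.22 ± 0.983) and Csf1 (1.99 ± 0.868), and Fcgr1, Mrc1, Trem2 and Itgam had means of 1.01 FPKM or less. In Acot12-/- UUO kidneys Lyz2 (252 ± 32.1) was followed by Cd68 (24.6 ± 3.78) and Csf1r (22.0 ± 0.891), which overlapped, and then by Csf1 (13.8 ± 4.17), Fcgr1 (12.6 ± 5.16), Trem2 (11.4 ± 1.28), Mrc1 (10.9 ± 0.987) and Itgam (7.28 ± 1.18), of which Mrc1 and Itgam alone did not overlap with each other as neighbours. Gpnmb and Cd163 were lowest in every group. Counted over all 10 genes, every UUO library was higher than every CL library for 9 genes in WT (not Csf1r; 35.5% of all genes tested) and for 9 in Acot12-/- mice (not Cd163; 27.8%).

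**Figure D2:**
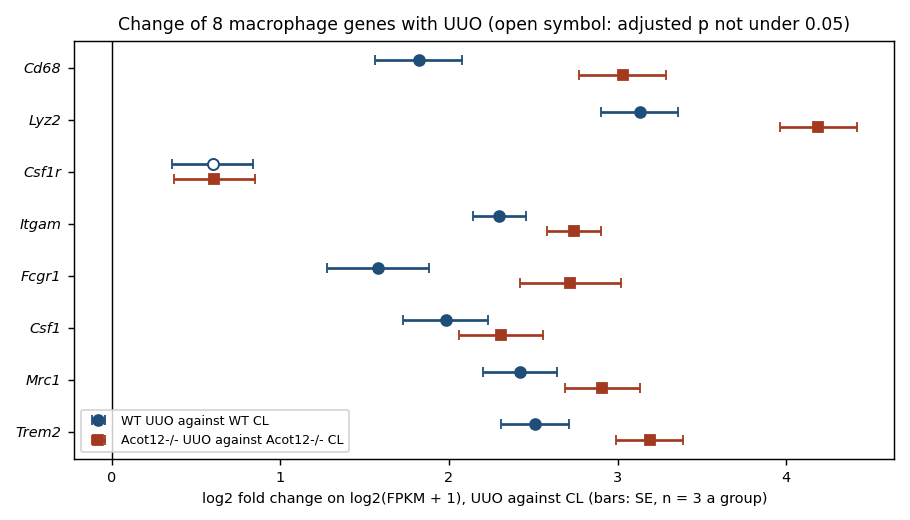
Log2 fold change on log2(FPKM + 1) of UUO against CL for the 8 macrophage genes tested, in WT (circles) and Acot12-/- mice (squares), with SE from limma and n = 3 a group; an open symbol marks an adjusted p not under 0.05. Csf1r has the smallest change in both genotypes (0.60 and 0.61) and Lyz2 the largest (3.13 and 4.19).

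Because Csf1r is carried by macrophages in general, the other genes were also compared relative to it within each library. Per unit of Csf1r FPKM, Lyz2 stood at 1.97, 2.35 and 2.18 in WT CL and 13.1, 14.0 and 10.7 in WT UUO. Mrc1 stood at 0.120, 0.105 and 0.0987 in WT CL and 0.559, 0.60 and 0.577 in WT UUO, and Trem2 at 0.0502, 0.0590 and 0.0172 against 0.355, 0.395 and 0.358. The obstructed WT kidneys were tightly grouped for Mrc1 and Trem2, and none touched the CL range. Over both genotypes 7 of 7 genes rose relative to Csf1r, by 1.54 (Csf1) to 3.05 (Lyz2) on the log2 scale, where 8.91% of all genes were called higher. Csf1r had risen least of the 8 genes, so the direction of these 7 differences was set by the choice of reference. In limma such p-values share the error of Csf1r in every gene, so each was also tested by exchanging kidney sides within genotype, which gave the smallest possible p of 0.005 for each of the 7 (exact permutation test, two-sided). Since the reference moved least, these p-values are no support separate from the rise with UUO. The count depended on the reference. Relative to Adgre1, the gene of the macrophage antigen F4/80, 4 of 8 genes were called. Among all genes 12740 were called in either direction, out of 13243 with the reference, so most genes passed. The 4 were Csf1r, which fell, and Lyz2 (1.56), Mrc1 (0.57) and Trem2 (0.75), which rose. Cd68 (0.32, adjusted p 0.208) and Fcgr1 (0.05, adjusted p 0.837) did not pass. Relative to Cd68, Lyz2 (1.23, adjusted p 0.00028) and no other of these genes was called higher, where 12880 of all genes were called in either direction.

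**Figure D3:**
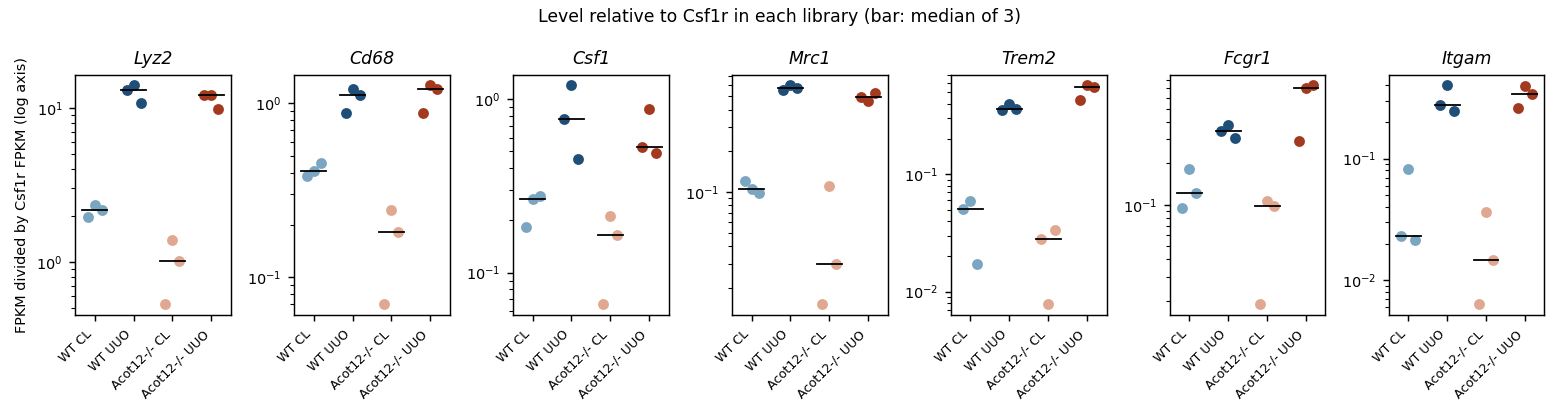
FPKM of 7 macrophage genes divided by the FPKM of Csf1r in the same library, on a log axis, by group; points are libraries and bars medians of 3. For Mrc1 the 3 WT UUO libraries sit between 0.559 and 0.60 and the 3 WT CL libraries between 0.0987 and 0.120, and Acot12-/- CL libraries are widely spread.

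Between the obstructed kidneys of the 2 genotypes no macrophage gene was called. Of 8 genes tested 0 passed in limma, 1 had an unadjusted p under 0.05, and 0.0151% of all genes were called and 2.36% had an unadjusted p under 0.05. The median log2 fold change of the 8 was 0.07. The gene with the unadjusted p under 0.05 was Trem2, at 0.48 (SE 0.20, unadjusted p 0.0347, adjusted p 1), with all 3 Acot12-/- UUO libraries above all 3 WT UUO libraries. Gpnmb did not overlap either, its mean being 2.89-fold higher in Acot12-/- UUO. Lack of overlap was found in the higher direction for 2 of the 10 genes, Trem2 and Gpnmb, and for 5.5% of all genes tested. For either gene the exact permutation test gave p 0.1, which is the smallest that 3 against 3 libraries allow. The ratio of Trem2 to Mrc1 was 0.635, 0.659 and 0.620 in WT UUO and 0.874, 1.23 and 1.05 in Acot12-/- UUO, again without overlap (log2 difference 0.70, exact permutation p 0.1). Fcgr1 had a log2 difference of 0.63 (SE 0.30, unadjusted p 0.0597). The differences of Mrc1 (-0.16, SE 0.22), Lyz2 (-0.09, SE 0.23), Cd68 (0.10, SE 0.26), Csf1r (0.05, SE 0.24), Itgam (0.15, SE 0.16) and Csf1 (-0.22, SE 0.25) were each smaller than their SE, which does not show that the groups were alike.

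In the contralateral kidneys 2 of the 8 macrophage genes tested were called lower in Acot12-/- than in WT mice, and 0 of 8 with only these groups in the fit. These were Cd68 (log2 fold change -1.11, SE 0.26, adjusted p 0.032) and Lyz2 (-1.16, SE 0.23, adjusted p 0.0153), where 3.36% of all genes were called lower. They had -1.18 and -1.20 without Acot12-/- CL replicate 2. The means were 2.61-fold and 2.26-fold higher in WT CL, and no Acot12-/- CL library reached the lowest WT CL library. Mrc1 (-0.66, SE 0.22, adjusted p 0.122) and Csf1 (-0.56, SE 0.25, adjusted p 0.282) did not pass, nor did Fcgr1 (-0.52, adjusted p 0.432), Itgam (-0.29, adjusted p 0.411) and Trem2 (-0.20, adjusted p 0.693), and Csf1r had 0.03 (SE 0.24). Every Acot12-/- CL library lay below every WT CL library for 4 of the 8 genes tested, Cd68, Lyz2, Csf1 and Mrc1, and for 9.73% of all genes tested. For Gpnmb this is not shown, since the floor of 3 fragments set for a listed 0 is worth more than the lowest WT CL value of 0.045 FPKM. Of the 2 calls neither passed without WT CL replicate 1, without WT CL replicate 3 or without Acot12-/- CL replicate 1, and without Acot12-/- CL replicate 2 Mrc1 joined them (-0.86, adjusted p 0.0152), when 10.4% of all genes were called lower. Of the 27 further general macrophage genes 8 were called lower and 0 higher (median -0.80). Tyrobp was one of them, with 8.17, 17.1 and 26.4 FPKM in Acot12-/- CL, all below the WT CL values given above (log2 fold change -1.67, SE 0.30, adjusted p 0.0119), and Adgre1 was not (-0.64, adjusted p 0.211). Without Acot12-/- CL replicate 2 both were called lower in limma, Tyrobp at -1.73 (adjusted p 0.00855) and Adgre1 at -0.96 (adjusted p 0.00772). The lipid-associated list went both ways in all libraries, with 3 of 29 genes lower and 4 higher (median -0.10). Without that library it had 5 lower and 5 higher. Of the alternatively activated genes 2 of 14 were lower, of the classically activated 2 of 15 and of the monocyte genes 4 of 13, with none higher. For the Csf1 receptor axis it was 3 of 14.

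Markers of some other cell types were lower as well. In Acot12-/- CL against WT CL, 9 of 12 endothelial markers, 7 of 13 markers of T, B and NK cells and 3 of 11 fibroblast markers tested were called lower, with none called higher. Among all genes 3.36% were called lower. With only these groups in the fit 1 of all genes was called, so at most 1 of these marker calls holds there. The counts were 11 of 12, 7 of 13 and 9 of 11 without Acot12-/- CL replicate 2, where 10.4% of all genes were called lower. The summed FPKM of the endothelial list was 240 to 367 in WT CL and 90.7 to 141 in Acot12-/- CL, that of the lymphocyte list 20.8 to 28.3 and 6.26 to 8.52, and that of the fibroblast list 220 to 284 and 85.8 to 167. No proximal tubule marker was called (median log2 fold change 0.49, 11 tested), and without Acot12-/- CL replicate 2, 2 of 11 were called higher, as were 11.6% of all genes. Of 7 dendritic cell markers 1 was called lower, and 3 without that library. Of 12 injured tubule markers 0 were called, and without that library 1 was lower and 1 higher. No endothelial or fibroblast marker was listed at 0 in every library of either CL group. Neutrophil markers, which share Itgam with macrophages, summed to 17.2 to 70.0 FPKM in WT CL versus 2.61 to 25.3 in Acot12-/- CL. Of the 13 genes of that list in the files, Cxcr1, Camp, Ngp, Mpo and Elane were at 0 in all CL libraries. The 4 with enough signal for a test were S100a8, S100a9, Retnlg and Csf3r. Their median log2 fold change was -0.78, and 0 were called. The part of these cell types in the lower levels of Cd68 and Lyz2 was not tested.

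**Figure D4:**
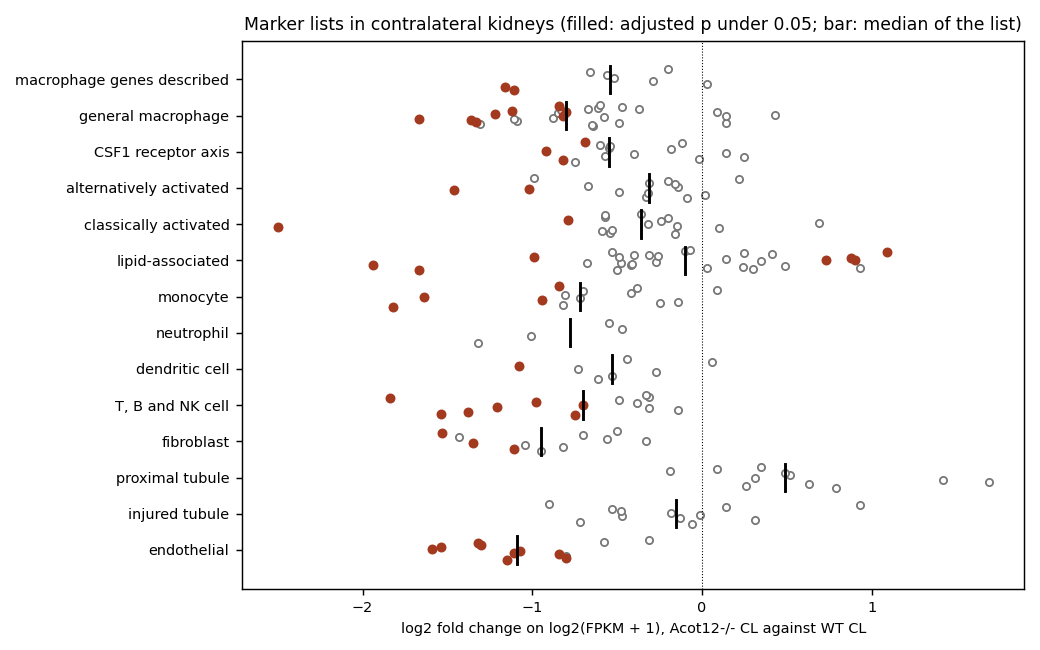
Log2 fold change on log2(FPKM + 1) of Acot12-/- CL against WT CL for the 8 macrophage genes (top row) and for the tested genes of 13 marker lists; filled points are called, open points are not and bars are medians. The medians of the endothelial (-1.09), fibroblast (-0.95) and general macrophage lists (-0.80) lie to the left of 0 and that of the proximal tubule list (0.49) to its right.

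The difference between the rise with UUO in Acot12-/- and in WT mice passed for 0 of the 8 genes tested. Its median was 0.59 on the log2 scale (all genes -0.01), 4 genes had an unadjusted p under 0.05, as 10.5% of all genes had, and 0.106% of all genes were called. Values were highest for Cd68 (1.21, SE 0.36, adjusted p 0.197), Fcgr1 (1.14, SE 0.43, adjusted p 0.33) and Lyz2 (1.07, SE 0.32, adjusted p 0.197), and near 0 for Csf1r (0.01, SE 0.34), where 6 of 20 alternatives turned the sign. Without Acot12-/- CL replicate 2 it was again 0 of 8, while 6.92% of all genes were called. Cd68 then had 1.28 (adjusted p 0.0708) and Lyz2 1.11 (adjusted p 0.0696). This difference is computed from the same libraries as the comparisons of genotypes above. With the replicate number as a block it was also 0 of 8, while the count over all genes rose from 14 to 83.

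Other genes of the macrophage programs were taken from lists written from general knowledge. Of 27 further general macrophage genes tested, 24 rose and 2 fell in WT kidneys, where 23.6% and 23.9% of all genes did, with the same counts in Acot12-/- kidneys, where 26.6% and 27.2% did. Cd14, the co-receptor for bacterial lipopolysaccharide (2.97, SE 0.21), the lysosomal protease Ctss (2.44, SE 0.35) and Ms4a7 (2.23, SE 0.33) rose most. Adgre1 rose from 3.47, 2.09 and 2.57 FPKM in WT CL to 13.5, 9.58 and 11.6 in WT UUO (1.77, SE 0.25). The 2 that fell were Mertk, a receptor for the uptake of dead cells (-0.68, adjusted p 0.00845), and Maf, a transcription factor (-0.76, adjusted p 0.04). Of 14 genes of the Csf1 receptor axis 12 rose and 0 fell in both genotypes, among them Runx1 (1.95, SE 0.17) and Spi1 (1.70, SE 0.20), the gene of PU.1 itself.

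Genes of both activation programs rose. Among all genes tested 23.6% were called higher and 23.9% lower in WT, and 26.6% and 27.2% in Acot12-/- kidneys. Of 14 alternatively activated genes tested 11 rose and 0 fell in WT kidneys, led by the chemokine Ccl17 (3.27, SE 0.33), Retnla (2.33, SE 0.46), which was listed at 0 in 2 of 3 WT CL libraries, and the lectin Mgl2 (2.16, SE 0.24). A further 11 genes of that list stayed under the filter. Among them was Arg1, arginase 1, at 0.913, 0.266 and 0.285 FPKM in WT UUO and 4.33, 8.40 and 0.615 in Acot12-/- UUO, 2 of the latter libraries lying far above the rest. Of 15 classically activated genes tested 10 rose and 0 fell in WT kidneys, with Socs3 (2.94, SE 0.37), the receptor Tlr2 (2.54, SE 0.18) and the chemokine Cxcl10 (2.52, SE 0.33) ahead. In Acot12-/- kidneys 13 of 14 and 14 of 15 rose, and without Acot12-/- CL replicate 2, 12 of 14 and 14 of 15, where 29.5% of all genes did. Nos2, the inducible nitric oxide synthase used as a classical marker, had 0.672, 1.21 and 0.871 FPKM in WT UUO and at most 0.238 in WT CL and was under the filter.

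Lipid-associated genes went both ways. Of 29 tested in WT kidneys 17 rose and 5 fell, where 23.6% of all genes were called higher and 23.9% lower. Falls were thus no more common on this list than among all genes. Spp1, osteopontin (3.12, SE 0.44), Apoe, the carrier of lipid exported from macrophages (2.69, SE 0.22), and the tetraspanin Cd9 (1.64, SE 0.21) rose most, and Lpl, lipoprotein lipase, fell most (-2.84, SE 0.37). Cd36, a fatty acid transporter, fell as well (-2.72, adjusted p 8.56e-05), as did the lysosomal lipase Lipa (-0.67), Nceh1 (-0.77) and Tfec (-0.64). Spp1 had 878 to 2761 FPKM in WT CL, where Trem2 had under 1, and is also a product of tubule cells, as are several other genes of this list. Of 13 monocyte genes tested 9 rose and 0 fell in WT kidneys, with Ccl2 (3.77, SE 0.21) and Ccl7 (3.39, SE 0.30), chemokines that draw monocytes out of the blood, and Ear2 (2.85, SE 0.31) ahead. The 4 not called were Ly6c2 (-0.05, adjusted p 0.884), Plac8 (0.74, adjusted p 0.15), Nr4a1 (0.57, adjusted p 0.198) and Ace (-1.07, adjusted p 0.0531).

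Markers of other cell types changed in the same obstructed kidneys. In WT UUO against WT CL 10 of 13 lymphocyte, 8 of 11 fibroblast and 5 of 7 dendritic cell markers were higher, 10 of 11 proximal tubule markers were lower, and all 12 markers of injured tubule were higher. Among all genes tested 23.6% were called higher and 23.9% lower in WT, and 26.6% and 27.2% in Acot12-/- kidneys. Of 12 endothelial markers 1 was higher and 4 were lower in WT UUO (median -0.20), while 9 were higher and 0 lower in Acot12-/- UUO against Acot12-/- CL (median 1.20). Of 4 neutrophil genes tested 1 was higher in WT UUO (Csf3r) and 4 in Acot12-/- UUO, where the summed neutrophil list reached 48.8 to 174 FPKM against 25.8 to 77.6 in WT UUO, and Elane was at 0 in all obstructed kidneys. Their part in the macrophage values was not tested.

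Over the 12 libraries the genes most like the mean standardized profile of the 10 were Pik3cd (Pearson r 0.9931), Cd84 (0.9922), AF251705 (0.9921), Pltp (0.992) and Ncf1 (0.9913). Many genes came close, 591 of 13235 having r above 0.95. The libraries share 1 contrast between UUO and CL, in which the depth read from low values also differed. Pik3cd had 1.20, 0.884 and 0.855 FPKM in WT CL versus 4.21, 4.16 and 4.91 in WT UUO. Within groups, after the group means were taken out, Cd68 and Lyz2 were closest to each other (r 0.71), Csf1r was closest to Trem2 (0.69), and Gpnmb and Cd163 ran against each other (-0.72, over 12 libraries with 3 a group and at levels of few fragments). Mrc1 went best with Cd68 (0.64) and Itgam with Fcgr1 (0.60).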

How the data were processed

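The authors extracted total RNA from kidney cortex, prepared directional NEBNext Ultra II libraries and had the reads trimmed, mapped and normalized by a service provider. The submitters' processing notes name mm10 and edgeR. The aligner and counting settings are not given in the sources used here. The deposited values are FPKM per gene symbol. The unit was derived from the values. Their low steps scale with transcript length and give the depth, with any scaling between libraries in it (largest error 0.67% on 4 simulated libraries). They are not counts, so no count test was run. Of 23183 symbols, 22148 matched GENCODE vM21 (GRCm38) as written.

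Genes with at least 1 FPKM in at least 3 libraries were tested, without those listed at 0 beside 10 FPKM or more in the same group (28 genes), which left 13243. limma 3.58.1 (R 4.3.3) was fitted to log2(FPKM + 1) for all 4 groups, with a variance trend; UUO against CL over both genotypes was a separate additive fit. A gene was called at an adjusted p under 0.05. On simulated data for WT UUO against WT CL (13243 genes) 61% of changes of log2 1 and 96% of log2 2 were recovered. Named genes are the 10 members, per macrophage list the 3 largest called rises and the largest called fall in WT, and Adgre1, Tyrobp, Il34, Lyz1 and Acot12. Hmgxb3, Mertk, Cd36, Lipa, Nceh1, Tfec, Arg1, Nos2, Fabp4, Csf3r, Ly6c2, Plac8, Nr4a1, Ace, Tie1, Plvap, Emcn and Egfl7 were named after their values were seen. Members and lists were chosen with earlier results of these data known. Each value is from 1 library; nothing states which mouse gave it, so p-values measure the spread between these libraries. Libraries of the same replicate number were treated as pairs within genotype, which no label states. Residuals of same-numbered CL and UUO libraries correlated at 0.13, 0.36 and 0.33 in WT and 0.32, 0.19 and 0.32 in Acot12-/- mice. Those of different numbers reached at most 0.14 in WT and -0.07 in Acot12-/- mice, so WT number 1 did not stand out. No batch is given. Alternatives were a pseudocount of 0.1, no filter, 2 other scalings, no trend, only the groups compared, the replicate block, genes listed at 0 kept, a fold change of at least 2, other reference genes and leaving out each library. The exact permutation tests, the list counts without Acot12-/- CL replicate 2 and the alternatives for Fabp4 were chosen after seeing the data. Intervals for FPKM were not formed, and fragment numbers cover counting error only. Promoters are RefSeq windows; Csf1r and proteins were not shown.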

Additional observations from a re-analysis of the deposited data

Results flagged for a closer look

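Fabp4, a fatty acid carrier of macrophages, endothelium and fat cells that is on the lipid-associated list, changed differently with UUO in the 2 genotypes. It had 279, 258 and 307 FPKM in WT CL versus 210, 207 and 167 in WT UUO, but 55.9, 102 and 66.2 in Acot12-/- CL versus 199, 243 and 312 in Acot12-/- UUO. The log2 fold change was -0.54 (SE 0.23, adjusted p 0.0757) in WT and 1.76 (SE 0.23, adjusted p 6.08e-05) in Acot12-/- mice, and the test of the difference gave 2.30 (SE 0.33, limma adjusted p 0.0287). Between the obstructed kidneys the difference was 0.35 (SE 0.23, adjusted p 1), and in CL kidneys Fabp4 was lower in Acot12-/- mice (-1.94, adjusted p 0.00275; -2.19 without Acot12-/- CL replicate 2). The call of the difference was lost on leaving out any WT library, Acot12-/- CL replicate 1 or Acot12-/- UUO replicate 2 or 3, with adjusted p from 0.0598 to 0.121, and it was kept without the other 3 libraries (2.54, adjusted p 0.00367, without Acot12-/- CL replicate 2). It was also lost without the filter on low values (adjusted p 0.0674) and with equal total FPKM (2.11, adjusted p 0.247). Of the endothelial markers Tie1 was called as well (1.38, adjusted p 0.0287), and Plvap (1.76, adjusted p 0.0643), Emcn (1.77, adjusted p 0.0983) and Egfl7 (1.71, adjusted p 0.061) were not. The part of endothelial cells in the values of Fabp4 was not tested.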

How the results depend on the processing

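The calls of UUO against CL in either genotype kept their direction for all 8 genes under every alternative, and the call of Csf1r alone changed. With equal total FPKM the median of all genes was 0.62 in WT and 0.44 in Acot12-/- mice (0.01 and -0.01 without), and Csf1r passed in WT mice (1.29, including that shift). Between obstructed kidneys this scaling turned Cd68 (-0.06), Csf1r (-0.12) and Itgam (0), and it turned the difference of the rises of Csf1r (-0.16), none of them called. For Acot12-/- CL against WT CL the count of 2 became 1 without the filter on low values and 0 with only the groups compared, and ran from 0 to 3 over libraries left out. Relative to Cd68, 2 genes were called and Fcgr1 (-0.27) and Csf1 (-0.28) turned, where 12880 of all genes were called. Relative to Adgre1, 4 were called, where 12740 of all genes were.

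Leaving out single libraries turned values that were not called. These were Csf1r in CL kidneys (-0.15 to 0.27), its difference of rises (-0.22 to 0.19), and, between obstructed kidneys, Cd68 (-0.01 to 0.31), Csf1r (-0.14 to 0.22), Mrc1 (-0.32 to 0) and Lyz2 (-0.20 to 0.01). The replicate block changed no call of the 8 genes but that of Csf1r in WT mice, and gave 8 of 8 there. Over all genes, requiring also a 2-fold difference kept 2634 of 6290 calls in WT, 3424 of 7114 in Acot12-/- mice, 252 of 593 between CL kidneys and 2968 of 8400 over both genotypes. The count between CL kidneys ran from 189 (without WT CL replicate 1) to 2923 (without Acot12-/- CL replicate 2), and was 329 with equal total FPKM and 1 with only the groups compared. The 14 genes of the difference of rises became 83 with the replicate block, 8 without the variance trend, 0 without the filter and 0 with equal total FPKM, and ran from 0 to 916 (without Acot12-/- CL replicate 2). Relative to Cd68 12880 and relative to Adgre1 12740 genes were called, against 8458 relative to Csf1r, and the 2 genes between obstructed kidneys ran from 0 to 3 over all alternatives and from 0 to 2 over libraries left out. The causes were not tested. Low levels limit Cd163, Gpnmb and, in CL kidneys, Trem2.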

Other observations

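Without Acot12-/- CL replicate 2, 19 of 27 general macrophage genes were called lower in Acot12-/- CL than in WT CL (8 of 27 with it), and 11 of 12 endothelial markers were (9 of 12 with it), while 10.4% of all genes were. In the difference of the rises, 14 of the 27 general macrophage genes were then called higher (0 of 27 with it), against 3.93% of all genes. This library, chosen for its place among the principal components, had the highest Adgre1 (2.68 FPKM against 0.665 and 1.14) and Mrc1 (1.09 against 0.249 and 0.507) and the lowest Csf1r, Trem2 and Il34 of the Acot12-/- CL group.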
